A study of Homo sapiens with 6 samples.

Results

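Enteroendocrine cells are the hormone-secreting cells of the intestinal epithelium, and 10 genes of their secretory granules, hormones and transcription factors were followed here by their gene symbols in the deposited table. The 10 genes were CHGA, CHGB, SCG2, SCG3, SCG5, NTS, PCSK1, NEUROD1, INSM1 and SST, of 27685 genes in all. Caco-2, the cell line used, is an established human colorectal cancer line whose cells take on features of absorptive enterocytes. The study compared polyA RNA of mock-transfected Caco-2 cells carrying the empty vector pcDNA3 (labelled WT, 3 libraries) with Caco-2 cells carrying hFABP1as, a construct antisense to the fatty acid carrier gene FABP1 (labelled FABP1_knockdown, 3 libraries). Both groups were one cell line, and the number of lines or clones behind each group is not stated, so a difference between lines and an effect of the construct cannot be told apart. VIL1 and CDX2, which mark intestinal epithelium, were well expressed, at a mean log2 CPM of 8.89 and 6.91 over the 6 libraries.

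Peptide hormones are stored in dense-core granules until a stimulus releases them. Chromogranins and secretogranins, together called granins, form the acidic matrix of these granules. Prohormone convertases and carboxypeptidases cut the hormone precursors inside the granule, and an amidating enzyme finishes many of the peptides. In the gut, endocrine progenitors arise under the transcription factor NEUROG3, and NEUROD1 and INSM1 act after it, while CHGA is a routine marker of enteroendocrine cells in tissue.

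Most of the enteroendocrine set was silent or barely present in both groups. CHGA, PCSK1, NEUROD1, INSM1 and SST, 5 of the 10 genes, had 0 counts in all 6 libraries. Of the other 5 genes, CHGB, NTS and SCG5 had enough counts to be tested and were higher in the libraries labelled antisense. SCG2 was counted in each vector control library and in no library labelled antisense. SCG3 had 2 counts in 1 vector control library and none elsewhere. In bulk RNA, fewer cells of a type and less RNA per cell cannot be told apart, and this applies to each gene here.

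Depth was 40351394 to 57979037 counts per library. Values are given as CPM (counts scaled to library size, with TMM factors), and 1 count was worth 0.0174 to 0.0245 CPM. A gene with 0 counts over a group could have held up to 3 counts, which corresponds to 0.0212 CPM (vector control) and 0.0211 CPM (labelled antisense), for counting error only. FABP1 itself was not lower in the libraries labelled antisense (120 ± 18.0 CPM against 134 ± 12.4 CPM, SD, n = 3 each, edgeR adjusted p = 0.268), so directions below belong to libraries as labelled. The strand setting of the counting is not stated, and RNA of the gene and of the antisense construct cannot be told apart in this count. Separate cultures are not stated for the libraries of a group, and without them the p-values reflect the spread among these libraries alone, which could be technical.

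Across the genome 14640 genes had enough counts for the test, the quasi-likelihood test of edgeR, adjusted by Benjamini-Hochberg and read at a threshold of 0.05. Of these, 27.7% were called higher and 27.3% lower in the libraries labelled antisense, and the groups did not overlap in 62.7%. Among the 10 enteroendocrine and granule genes, 3 were tested, all 3 were higher, and the groups did not overlap in any of them. NTS and SCG5 entered the test through their counts in the libraries labelled antisense, so the count of 3 higher genes does not stand as support for a direction of the set. Among the 1846 tested genes with a mean log2 CPM under 0, where NTS and SCG5 lay, 25.3% were higher and 12.8% lower. Summed over the 10 genes, vector control libraries 2, 3 and 4 (numbered as in the column headers, an order kept below for both groups) held 102, 65 and 63 counts, and the libraries labelled antisense 157, 200 and 280. This was at most 0.000508% of a library's counts. CHGB supplied 74.8% of the summed counts in the vector control and 49.6% in the other group, and the share of NTS was 4.35% and 41.1%.

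**Figure D1:**
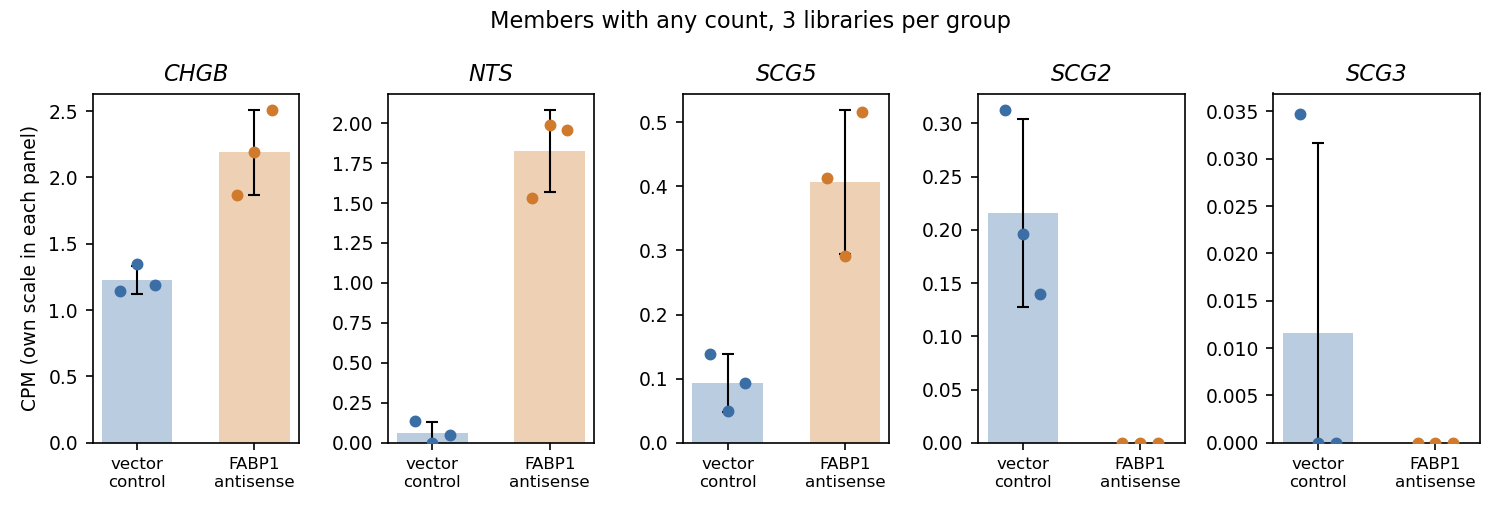
CPM of the 5 genes with any count (CHGB, NTS, SCG5, SCG2 and SCG3), by group, on a y axis of its own in each panel that starts at 0. Points are the 3 libraries of a group, bars their mean and error bars the SD. For CHGB, NTS and SCG5 the libraries labelled antisense lie above all vector control libraries, and for SCG2 they lie at 0.

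NTS encodes the precursor of neurotensin, a peptide that is released from N cells of the ileum after fat is eaten. Of the 3 genes of the set that were tested, it had the largest change. The vector control libraries held 8, 0 and 2 counts of it, and the libraries labelled antisense 63, 89 and 110. The corresponding CPM were 0.139, 0 and 0.0466 against 1.53, 1.99 and 1.95, with no overlap between the groups. The mean went from 0.0618 ± 0.0707 to 1.82 ± 0.256 CPM (SD, n = 3), a log2 fold change of 4.68 (SE 0.56, 95% interval 3.41 to 5.95, edgeR adjusted p = 0.000152). The size of this change rests on few control counts, 10 over the group. Without vector control library 2, which held 8 of them, the log2 fold change was 6.10, and the pooled counts gave a 26.1-fold ratio with a counting interval of 13.9 to 55.0. By mean level over both groups NTS was a weakly expressed gene, at rank 12798 of 14640 tested genes. Its rank within the libraries labelled antisense alone was not computed.

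Expressed genes around NTS in chromosomal order were also mostly higher. Of the 20 nearest tested genes whose mean log2 CPM reached 1, 10 on either side, 15 were higher and 1 lower, with a median log2 fold change of 0.63 and a range of -3.22 to 7.12. Genes below that level were passed over, so these 20 ran from OSBPL8 to LUM, and their distances from NTS were not measured. The nearest of these 20 on either side, METTL25 and C12orf29, stood at 0.69 and 0.76, below the 4.68 of NTS itself. Such a lean was not particular to NTS. Among genes of the set at 0 counts, PCSK1 had 13 higher and 1 lower neighbours, SST 9 and 5, and INSM1 3 and 7. CHGA had 7 and 7, and NEUROD1 4 and 4. Around SCG3 12 were higher and 3 lower. Over all tested genes 27.7% were called higher and 27.3% lower. The part of the NTS neighbourhood in the NTS value was not tested.

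The promoter of NTS is shown because NTS changed most among the 3 tested genes of the set, and that of SCG5 because it also rose. Each is the 250 bases before the RefSeq start (build GRCh38.p14), at chr12:85874045-85874294 (plus strand) and chr15:32641460-32641709 (plus strand). Capitals mark TGACG or its reverse complement CGTCA, which is one side of the cyclic AMP response element TGACGTCA, a site for the CREB family of factors.
NTS: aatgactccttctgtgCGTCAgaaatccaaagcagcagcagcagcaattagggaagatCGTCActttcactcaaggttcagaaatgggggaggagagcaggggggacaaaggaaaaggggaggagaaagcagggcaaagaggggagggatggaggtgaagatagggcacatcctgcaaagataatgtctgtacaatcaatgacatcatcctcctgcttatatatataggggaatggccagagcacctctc
SCG5: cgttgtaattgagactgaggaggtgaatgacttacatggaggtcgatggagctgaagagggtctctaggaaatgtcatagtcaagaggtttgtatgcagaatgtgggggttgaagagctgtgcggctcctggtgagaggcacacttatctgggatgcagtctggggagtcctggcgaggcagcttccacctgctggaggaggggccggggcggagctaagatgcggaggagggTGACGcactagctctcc

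The full element TGACGTCA was in neither window, and the shorter TGACG stood 2 times in the NTS window and 1 time in the SCG5 window. It was present in 20.4% of the 27305 RefSeq promoter windows of the same length, searched on both strands and not counting matches inside TGACGTCA. The E-boxes CAGATG and CAGCTG, forms of the site bound by NEUROD1 and related factors, were in neither window, and were in 12.2% and 13.8% of all windows. These are matches of letters and no evidence of a bound site.

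CHGB, chromogranin B, is one of the main granule matrix proteins and was the granin of the set with the most counts. The vector control libraries had 66, 55 and 51 counts and the libraries labelled antisense 77, 98 and 141. The CPM were 1.15, 1.35 and 1.19 against 1.87, 2.19 and 2.51, so the groups did not overlap. The mean rose from 1.23 ± 0.106 to 2.19 ± 0.318 CPM (SD, n = 3), with a log2 fold change of 0.84 (SE 0.21, 95% interval 0.37 to 1.31, edgeR adjusted p = 0.00767). This was a modest rise of a gene that was present in all 6 libraries. Its 20 neighbours in gene order had a median log2 fold change of 0.04, with 5 higher and 3 lower.

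SCG5 encodes 7B2, a granin-like protein that serves as the chaperone of the prohormone convertase PCSK2. The vector control libraries held 8, 2 and 4 counts of it, and the libraries labelled antisense 17, 13 and 29. The mean rose from 0.0937 ± 0.0450 to 0.406 ± 0.112 CPM (SD, n = 3), a log2 fold change of 2.04 (SE 0.49, 95% interval 0.93 to 3.15, edgeR adjusted p = 0.00687). The libraries labelled antisense all lay above the vector control libraries, yet SCG5 was at rank 14394 of 14640 tested genes by mean level over both groups. A gene annotated on SCG5's span, SCG5-AS1, had 0 counts in all 6 libraries, and the readthrough ARHGAP11A-SCG5 was not analysed here. The client of 7B2, PCSK2, was also at 0 counts in all 6 libraries. Among the 20 neighbours of SCG5, 10 were higher and 2 lower, with a median of 0.27.

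SCG2 moved the other way. This gene encodes secretogranin II, the precursor of secretoneurin. It had 18, 8 and 6 counts (0.313, 0.196 and 0.140 CPM) in the vector control libraries and 0 in each library labelled antisense. Against the 3 counts that 0 allows over the group, it was at least 10.7-fold lower. It had too few counts for the main test. Without the filter on low counts it was lower by edgeR's test (adjusted p = 0.00706), and DESeq2 gave an adjusted p of 0.00174. The exact two-sided permutation test on its CPM gave p = 0.1, the smallest value that 3 libraries against 3 allow. SCG2's 20 neighbours had a median log2 fold change of -0.30, with 11 lower and 3 higher. SCG3, secretogranin III, which anchors chromogranin to the granule membrane, had only its 2 counts in vector control library 2, so no fold is given.

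Levels between genes were compared as CPM per kilobase of reference transcript. In the vector control CHGB led at 0.481 ± 0.0415 CPM per kilobase. SCG2 (0.0839 ± 0.0342), SCG5 (0.0758 ± 0.0364) and NTS (0.05 ± 0.0572, SD, n = 3 each) followed, and the libraries of these 3 genes overlapped, so their order is not resolved. In the libraries labelled antisense NTS came first at 1.48 ± 0.207, with libraries from 1.24 to 1.61. CHGB was next at 0.858 ± 0.125 with libraries from 0.733 to 0.983, and SCG5 was at 0.329 ± 0.0910. These 3 genes did not overlap there, so the order of NTS and CHGB differed between the groups. For comparison, VGF, a granin-like precursor outside the set, stood at 0.573 and 1.98 CPM per kilobase.

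**Figure D2:**
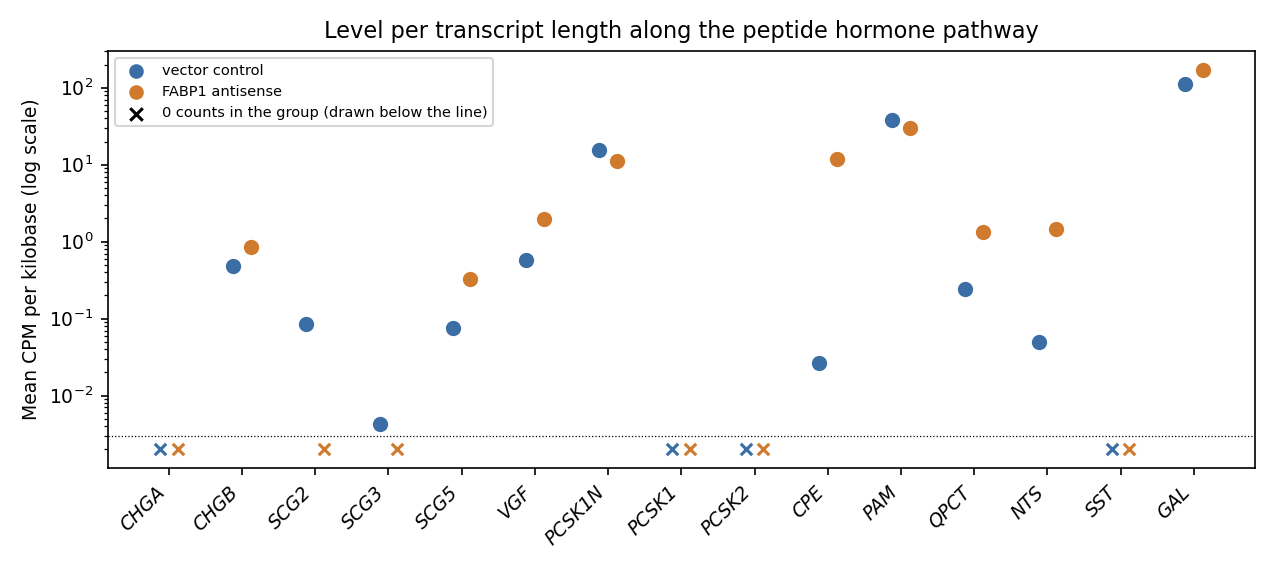
Mean CPM per kilobase of transcript (log axis) of granins, processing enzymes and peptides in the vector control and in the libraries labelled antisense. Crosses under the dotted line are groups with 0 counts and have no value. CHGA, PCSK1, PCSK2 and SST are at 0 in both groups, while CPE goes from 0.0264 to 12.0 and GAL is the highest of these genes in both groups.

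The 5 silent genes include the main granin, the main convertase and both lineage factors of the set. CHGA is chromogranin A, PCSK1 the convertase that cuts proglucagon and other gut prohormones, SST the inhibitory hormone somatostatin of D cells, and NEUROD1 and INSM1 transcription factors of endocrine differentiation. A count of 0 in all libraries was found for 8457 of the 27685 genes (30.5%), so silence is common in this table. PCSK1 overlaps CAST in the annotation, and CAST had counts in every library, 1891 to 5210, without any being assigned to PCSK1.

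Of the 10 genes, 7 had an entry in the RefSeq promoter table (CHGA, SCG3, SCG5, NTS, PCSK1, NEUROD1 and SST). The element TGACGTCA was found 1 time each in the windows of CHGA, PCSK1 and SST, at 54 to 47, 77 to 70 and 47 to 40 bases before the start. In all RefSeq windows of this length its share was 1.77%. These 3 promoters are printed because they carry the same element and all 3 genes had 0 counts. They lie at chr14:92922900-92923149 (plus strand), chr5:96433249-96433498 (minus strand) and chr3:187670395-187670644 (minus strand), on GRCh38.p14, with TGACGTCA and, in PCSK1, a further TGACG in capitals.
CHGA: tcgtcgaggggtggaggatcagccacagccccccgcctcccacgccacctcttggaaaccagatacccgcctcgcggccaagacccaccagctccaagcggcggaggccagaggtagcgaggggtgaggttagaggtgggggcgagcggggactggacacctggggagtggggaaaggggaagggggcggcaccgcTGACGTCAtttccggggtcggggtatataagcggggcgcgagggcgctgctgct
PCSK1: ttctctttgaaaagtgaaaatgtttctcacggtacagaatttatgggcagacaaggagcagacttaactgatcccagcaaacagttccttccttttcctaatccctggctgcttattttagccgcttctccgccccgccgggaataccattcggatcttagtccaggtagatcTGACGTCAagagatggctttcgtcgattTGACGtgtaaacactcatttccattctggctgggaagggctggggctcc
SST: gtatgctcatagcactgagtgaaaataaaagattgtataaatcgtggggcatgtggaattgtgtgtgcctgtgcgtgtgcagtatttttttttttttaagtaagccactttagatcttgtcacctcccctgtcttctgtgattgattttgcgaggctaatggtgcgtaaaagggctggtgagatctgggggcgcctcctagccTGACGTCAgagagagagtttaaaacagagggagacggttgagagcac

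The element thus stood in 3 silent genes and in neither of the windows of NTS and SCG5. CHGB and SCG2, which had counts, and INSM1 had no promoter entry, so these windows do not compare silent with expressed genes. The search took exact letters only, and near matches such as tgacatca in the NTS window were not counted. The windows of SCG3 and NEUROD1 did not hold it either. The SCG3 window held 2 copies of CAGCTG. The GC content of the 7 windows was 70.0% for NEUROD1, 68.8% for CHGA, 61.6% for SCG3, 56.4% for SCG5, 49.2% for NTS, 48.0% for PCSK1 and 45.6% for SST, against a median of 58.0% over all windows.

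Beyond the set, granins as a family were described by a list of 7 genes. Of 4 tested, CHGB, SCG5 and VGF rose and PCSK1N fell, 2 had too few counts and CHGA had none. VGF moved from 1.47 ± 0.510 to 5.09 ± 1.07 CPM (log2 fold change 1.79, SE 0.27, edgeR adjusted p = 0.000518). PCSK1N, which encodes proSAAS, an inhibitor of PCSK1, was the most abundant of the list at 16.2 ± 2.98 and 11.7 ± 2.47 CPM (SD, n = 3). Its fall of 0.47 on the log2 scale was at the threshold (edgeR adjusted p = 0.0464), its groups overlapped, and 4 of the 6 leave-one-library-out fits lost the call. The median log2 fold change of the 4 tested genes was 1.32, against 0.01 for all tested genes. This median is partly set by the filter on low counts, which let SCG5 in through the libraries labelled antisense and left out SCG2, so it does not describe the family as a whole.

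Processing enzymes did not move together. Of 12 tested, 3 rose and 6 fell, with a median of -0.24, and PCSK1 and PCSK2 had no counts. Among all tested genes 27.7% were called higher and 27.3% lower. CPE, carboxypeptidase E, which trims basic residues from cut prohormones, had 4, 5 and 0 counts in the vector control and 1157, 1322 and 1663 in the libraries labelled antisense. Its level went from 0.0640 ± 0.0614 to 29.1 ± 0.845 CPM (SD, n = 3; log2 fold change 8.78, SE 0.27, edgeR adjusted p = 5.06e-08), and the log2 fold change was 9.42 without vector control library 3. QPCT, glutaminyl cyclase, which forms the blocked N-terminus that neurotensin carries, rose by 2.46 on the log2 scale (SE 0.28), from 0.417 ± 0.138 to 2.35 ± 0.207 CPM. SCG5 was the third that rose. PAM, the amidating enzyme, fell by 0.34 (SE 0.07) from 136 ± 5.17 to 108 ± 3.89 CPM. The proprotein convertases PCSK5 and PCSK6 fell by 0.56 and 0.51, and the carboxypeptidases CPD and CPZ by 0.56 and 1.81. FURIN (-0.14, SE 0.09) and PCSK7 (-0.03, SE 0.08) did not pass. The libraries labelled antisense held CPE and QPCT but no counts of the granule convertases PCSK1 and PCSK2. CPE and SCG5 entered the test through those libraries, so the count of 3 that rose is partly set by the filter.

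**Figure D3:**
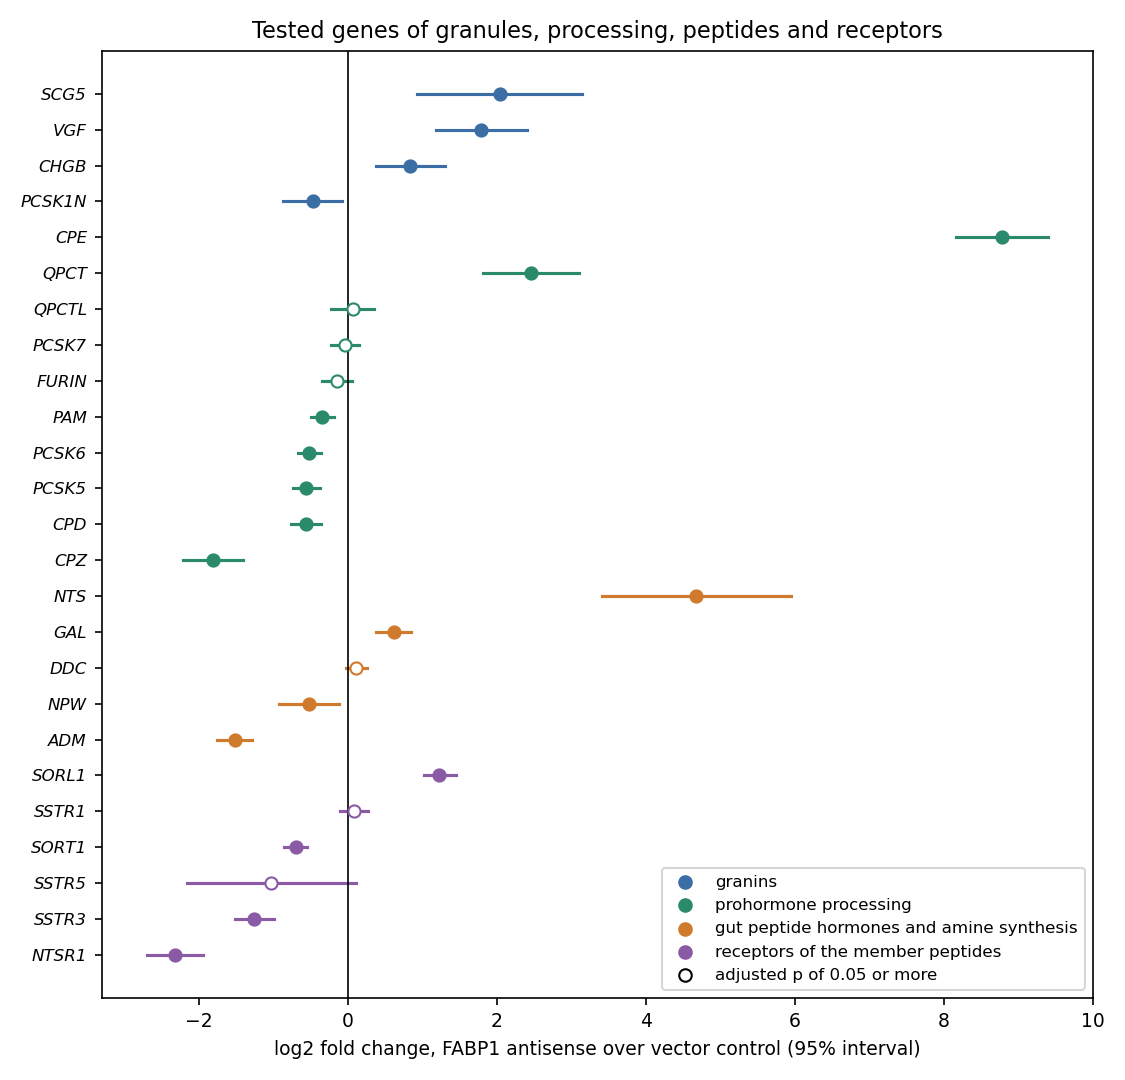
Log2 fold change (FABP1 antisense over vector control) with its 95% interval for the tested genes of 4 lists: granins, prohormone processing, gut peptides and amine synthesis, and receptors of neurotensin and somatostatin. SCG5 and PCSK1N belong to both of the first lists and are drawn with the granins. Filled points passed at an adjusted p under 0.05. CPE at 8.78 and NTS at 4.68 lie farthest right, and NTSR1 at -2.33 farthest left.

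Many other gut hormone genes had no counts. Of 24 genes of gut peptides and amine synthesis, 12, SST included, had 0 counts in all 6 libraries, among them GCG, CCK, SCT, GAST and TAC1, and 7 had too few counts to test. GIP had 17, 0 and 7 counts in the vector control and none in the others, and TPH1, which starts serotonin synthesis, had 18, 6 and 7 against 0, 0 and 7. Of 5 tested genes NTS and GAL rose, ADM and NPW fell, and DDC did not pass (0.12, SE 0.06). GAL, for the neuropeptide galanin, was the most abundant peptide gene and was at 91.5 ± 11.7 and then 140 ± 8.54 CPM (SD, n = 3; log2 fold change 0.61, SE 0.10, edgeR adjusted p = 0.000952). ADM, adrenomedullin, fell by 1.51 (SE 0.10). NPW (-0.52, SE 0.18) lost its call in 4 of the 6 leave-one-library-out fits.

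The gene of the main neurotensin receptor was lower in the libraries labelled antisense, as were 27.3% of all tested genes. Any link between its level and that of NTS was not tested. NTSR1 fell by 2.33 on the log2 scale (SE 0.17, edgeR adjusted p = 6.57e-06), from 12.5, 11.6 and 12.6 CPM in the vector control libraries to 3.01, 1.83 and 2.49 CPM in the libraries labelled antisense. Of 6 tested receptor genes 1 rose and 3 fell. SORT1, sortilin, which also binds neurotensin, fell by 0.70 (SE 0.07) and the related sorting receptor SORL1 rose by 1.23 (SE 0.09). Among somatostatin receptors SSTR3 fell by 1.26 (SE 0.12), and SSTR1 (0.08, SE 0.08) and SSTR5 (-1.03, SE 0.50) did not pass.

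Transcription factors listed for the lineage were mixed, and the list does not sort them by whether they promote or oppose the endocrine fate. Of 26 listed, 5 had no counts (NEUROD1, INSM1, PAX4, NKX2-2 and ST18), 7 had too few and 14 were tested. Of these 14, 6 rose and 2 fell (median 0.28), beside 27.7% higher and 27.3% lower over all tested genes. TOX3 rose by 4.19 (SE 0.11) from 1.70 ± 0.118 to 31.0 ± 2.73 CPM and SOX4 by 1.88 (SE 0.08) from 32.8 ± 1.63 to 120 ± 6.70 CPM (SD, n = 3). RFX3 and MLXIPL rose by 0.84 and 0.70, and GFI1 and FOXA1 fell by 1.62 and 0.32. HES6, the other gene counted as higher besides ATOH1 (0.29, SE 0.11, edgeR adjusted p = 0.049), lost its call in 5 of the 6 leave-one-library-out fits. ATOH1, which commits intestinal progenitors to the secretory lineage and is named here after its values were seen, had 0 counts in the vector control and 11, 40 and 36 in the libraries labelled antisense, at least 28.8-fold higher (edgeR adjusted p = 0.00120). NEUROG3, the endocrine progenitor factor, had 0 counts in the vector control and 3, 0 and 4 in the others, too few for a test. RFX6, also named after its values were seen, had 0 counts in the vector control and 4, 23 and 19 in the others and was not tested. ATOH1 entered the test through the libraries labelled antisense, so the count of higher genes and the median are partly set by the filter.

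Changes among granule exocytosis genes ran both ways. The 28 tested genes comprised 14 that rose, 6 that fell and 8 that did not pass, with a median log2 fold change of 0.38, while 8 of the 45 listed, SNAP25 and CADPS among them, had no counts. PTPRN2, a phosphatase-like protein of the granule membrane, rose by 4.46 (SE 0.61) from 0.122 ± 0.154 to 3.04 ± 0.587 CPM, and by 6.30 without vector control library 2. RAB3B, a GTPase of granule docking, rose by 2.87 (SE 0.13), the calcium sensor gene SYT7 by 1.55 (SE 0.19) and SYP, synaptophysin, by 1.29 (SE 0.17). ANXA13 had no counts in the vector control and was at least 259-fold higher. ANXA13, PTPRN2, RAB27B and UNC13A entered the test through their counts in the libraries labelled antisense. The split of 14 to 6 and the median are therefore partly set by the filter. They do not stand as support for a direction. Over all tested genes 27.7% were called higher and 27.3% lower. SYT13, STX1A and STXBP2 each lost their call in 5 of the 6 leave-one-library-out fits.

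**Figure D4:**
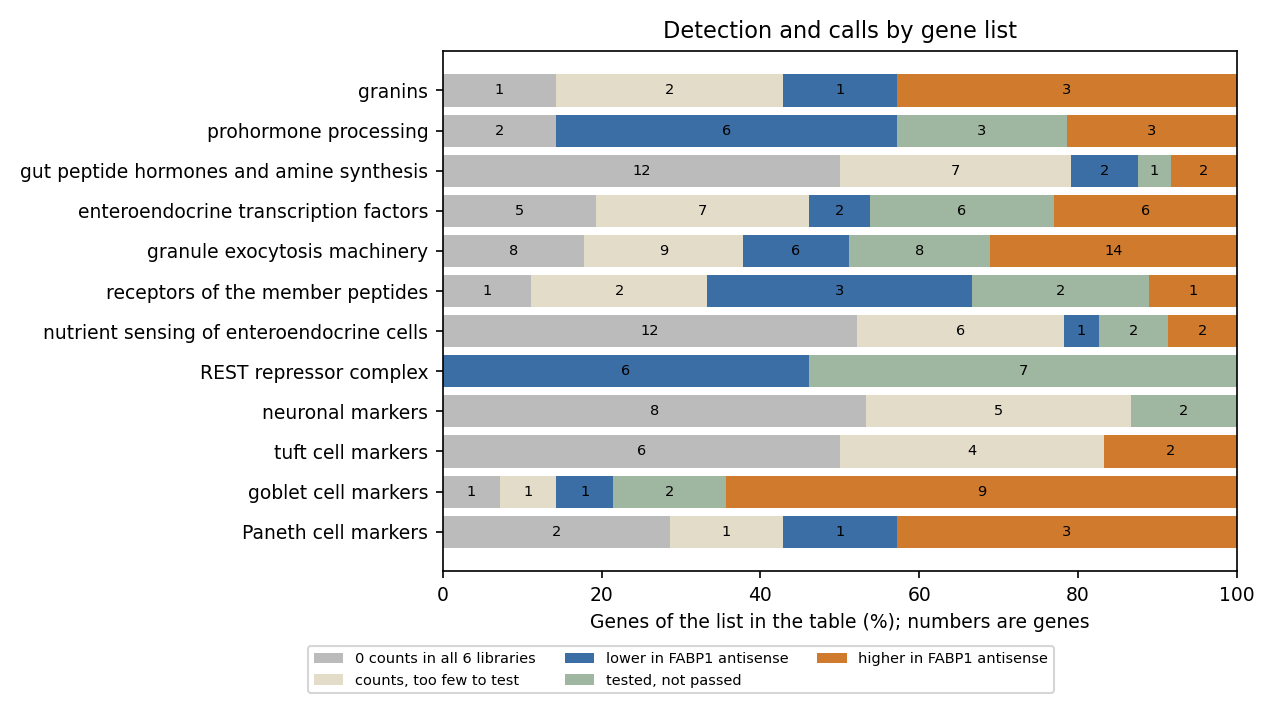
Share of each of 12 gene lists (x axis, percent of the genes in the table) with 0 counts in all 6 libraries, with counts too few to test, lower, tested but not passed, or higher in the libraries labelled antisense. Numbers in the bars are genes. The hormone and nutrient sensing lists have 12 silent genes each, while goblet markers have 9 genes that were higher.

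Nutrient sensors of enteroendocrine cells were largely undetected. Of 23 listed, 12 had no counts, the fatty acid receptor genes FFAR1, FFAR2 and FFAR3 among them, and 5 were tested. LPAR5 rose by 2.29 (SE 0.28) and CACNA1D by 0.58 (SE 0.11), KCNJ11, a subunit of the ATP-sensitive potassium channel, fell from 5.45 to 1.93 CPM, and FFAR4 (-0.12, SE 0.12) and GPR119 (0.91, edgeR adjusted p = 0.0621) did not pass.

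REST is a repressor of neuronal and neuroendocrine genes in other cell types. Its level was 41.1 ± 3.95 CPM in vector control libraries and 43.3 ± 4.81 CPM in those labelled antisense (SD, n = 3; log2 fold change 0.08, SE 0.10, 95% interval -0.16 to 0.31, edgeR adjusted p = 0.567). Of 13 genes of the REST complex 6 fell and 7 did not pass, with a median of -0.20. The shares over all tested genes were 27.3% lower and 27.7% higher. KDM1A and EHMT1 fell by 0.47 (SE 0.06) and 0.45 (SE 0.07), EHMT2 by 0.42 and CTDSP1 by 0.41. RCOR3 (-0.25, edgeR adjusted p = 0.0419) lost its call in 10 of 13 alternatives, 5 of the 6 leave-one-library-out fits among them. The part of these small differences in the values of CHGB, NTS and SCG5 was not tested.

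Markers of other cell types that carry granins or sit beside enteroendocrine cells are given as measured. Of 15 neuronal markers 8 were at 0 counts in all libraries, including STMN2, ELAVL4 and GAP43, and the 2 tested, TUBB3 and ELAVL2, did not pass. Summed, they ranged from 12.6 to 16.9 CPM (vector control) and from 12.1 to 13.1 CPM (labelled antisense). Of 14 goblet markers 9 rose and 1 fell of 12 tested, and SPDEF was at 0. Their summed level was 133 to 155 CPM and 517 to 542 CPM, most of it from 1 gene, AGR2, at 126 to 148 and 427 to 451 CPM. AGR3 rose by 6.11 (SE 0.18), CREB3L1 by 3.75 and FCGBP by 3.72. ITLN1 was the goblet marker that fell (log2 fold change -1.80, SE 0.35), and ZG16 and SPINK4 did not pass. Tuft markers summed to 0.808 to 1.14 CPM and 4.41 to 5.44 CPM, with GFI1B (2.14, SE 0.22) and 1 other gene, ALOX5AP, higher and TRPM5 and DCLK1 at 0. GFI1B made up most of the tuft sum, at 0.612 to 0.885 and 2.81 to 3.81 CPM. Of 4 tested Paneth markers 3 rose, LYZ by 1.04 among them, and PLA2G2A fell by 2.13, with DEFA5 and DEFA6 at 0. Their summed level was 157 to 175 and 61.7 to 63.0 CPM, most of it from PLA2G2A, at 144 to 162 and 33.9 to 36.0 CPM. The sum fell with PLA2G2A, while LYZ went from a mean of 12.3 to 25.4 CPM. Of those that rose, MUC2 and BCAS1 (goblet), ALOX5AP (tuft) and REG1A and MMP7 (Paneth) entered the test through the libraries labelled antisense. ITLN1 entered it through the vector control. The counts of higher genes in these lists therefore do not stand as support for a direction. Over all tested genes 27.7% were called higher and 27.3% lower. The part of goblet, tuft or Paneth-type expression in the values of CHGB, NTS, SCG5 and SCG2 was not tested.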

How the data were processed

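PolyA RNA of 6 Caco-2 libraries was sequenced after TruSeq Stranded mRNA preparation, per the labels. The submitters' processing notes name Trimmomatic 0.38, HISAT2 2.1.0, Bowtie2 2.3.4.1, StringTie 1.3.4d and GRCh37 without roles. The strand setting of the counting is not stated in the sources. The authors deposited raw counts per gene; 12 further per-library columns were not used. Column headers gave the group but no replicate number of the labels, so libraries carry the header numbers.

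The deposited counts were filtered with filterByExpr, scaled by TMM and tested with edgeR 4.0.16 (glmQLFit, glmQLFTest) in R 4.3.3, with Benjamini-Hochberg adjustment over all 14640 tested genes. The standard error is the absolute log2 fold change over the square root of F. Intervals are 95%. Alternatives were a block on library number, omission of single libraries, other scalings and filters, glmTreat and DESeq2 1.42.0. The test was tried on simulated counts.

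Transcript lengths came from GENCODE 29 by RefSeq accession, gene order and promoters from RefSeq tables of GRCh38.p14. The genes of the set and the 12 lists were chosen with earlier results of these data known. Beside the set, FABP1 and REST, the naming rule took up to 6 genes per list that passed with the largest changes at a mean log2 CPM of at least 0, and defining markers at 0. Genes named outside it were chosen after their values were seen. The rule's search for genes with a similar profile applied to no gene of the set, since none that passed had a mean log2 CPM of at least 1.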

Additional observations from a re-analysis of the deposited data

How the results depend on the processing

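CHGB and NTS kept their direction and call in all 13 alternatives, and SCG5 in the 12 that tested it; the stricter filter (1 CPM in 3 libraries) left SCG5 out. The count of lower genes in the set was 1 in place of 0 without the filter on low counts and in the DESeq2 test, in both cases by SCG2, which the main filter had left out. Tested against a fold of 1.2 by glmTreat, 2657 genes were higher and 2498 lower over all genes, in place of 4062 and 3992; the set kept 3 higher and 0 lower. With the replicate block on library number, 3355 genes were higher and 3306 lower, and the set again had 3 higher and 0 lower. Same-numbered libraries correlated at 0.106, -0.281 and -0.249 in their deviations from the group means, so the numbers are not taken as pairs. Of the listed genes the report names, RCOR3, PCSK1N, NPW, HES6, STX1A, STXBP2 and SYT13 lost their call under the block. Under glmTreat the same 7 genes and PAM, EHMT2, HDAC1, FOXA1, SNAP23 and RAB3D did not pass; the REST list had 3 lower genes in place of 6, the processing list 4 in place of 6, and the exocytosis list 11 higher and 4 lower in place of 14 and 6. Depth limits the silent genes: below 3 counts over a group a level cannot be told from 0.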
